A study of Mus musculus with 5 samples.

Results

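The mitosis and chromosome segregation genes are a set of 43 listed genes that run cell division, from the cyclins that start mitosis to the proteins that cut the cell in 2. They were found by gene symbol in the platform annotation, and 1 probe set stood for each gene, the brightest on average across the 5 arrays. Of the 43, 42 had such a probe set, out of 18193 genes in all, and Ccnb1 was not analysed here. The list was put together with earlier results of these data known, so its members' values describe these cultures.

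The cells were derived from mouse embryonic stem cells and grown on gelatin-coated plates under a pancreatic differentiation protocol. The 5 groups, with 1 array each, were cells at day 5 without MPA, at day 6 with and without MPA, and at day 8 with and without MPA. MPA was given at 2 µM from day 5, so the treated cells had 1 day of exposure at day 6 and 3 days at day 8. The labels do not write MPA out, and they name no line, strain or genotype. The cells without MPA are called controls below. With 1 array in each group, nothing measures how far cultures of a group differ, so differences between arrays are sizes that carry no p-value. Precision is limited by the small number of arrays.

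Mitosis begins when CDK1 bound to cyclin B becomes active. Condensin and topoisomerase II then compact the chromosomes, kinetochores tie them to the spindle, and the spindle checkpoint holds the cell until every chromosome is attached. The anaphase-promoting complex with CDC20 then marks securin and cyclin B for destruction, separase cuts the cohesin that joins sister chromatids, and the spindle midzone places the furrow. The genes of this programme are transcribed late in the cell cycle, largely through promoter elements named CHR and CCAAT box. Embryonic stem cells divide fast and spend little time in G1, and differentiating cells lengthen their cycle.

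The promoters are shown because they are a feature the members share that was not used to choose them. RefSeq promoter windows (assembly GRCm38.p6, 250 bases before to 50 bases after the annotated start) were at hand for 35 of the 42 genes. The CHR letters TTTGAA stood on either strand in 26 of the 35 windows (74.3%), against 2263 of 14452 windows of genes on the array (15.7%). The variant TTCGAA stood in 4 of 35 (11.4%), against 2.23%. CCAAT, read on either strand, stood in 26 of 35 (74.3%), against 42%. A CHR or its variant together with a CCAAT box was found in 25 of 35 members (71.4%) and in 8.25% of the genes on the array. A match of letters is a description and no measure of binding. The last 100 bases before the start of 8 members with motifs there are given 5′ to 3′ on the gene's strand, with the CHR and CCAAT letters in capitals. On the other strand the CHR reads TTCAAA, while a CCAAT box on that strand reads ATTGG.
Ccnb2 (chr9:70421555-70421654, minus strand): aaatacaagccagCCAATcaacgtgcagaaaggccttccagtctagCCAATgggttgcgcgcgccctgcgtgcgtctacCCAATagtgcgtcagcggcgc
Cdk1 (chr10:69352913-69353012, minus strand): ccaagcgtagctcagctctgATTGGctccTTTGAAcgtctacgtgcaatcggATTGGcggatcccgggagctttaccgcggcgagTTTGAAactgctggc
Cdc20 (chr4:118437344-118437443, minus strand): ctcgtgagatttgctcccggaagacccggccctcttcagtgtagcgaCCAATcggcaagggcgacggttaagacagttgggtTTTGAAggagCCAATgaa
Ube2c (chr2:164769829-164769928, plus strand): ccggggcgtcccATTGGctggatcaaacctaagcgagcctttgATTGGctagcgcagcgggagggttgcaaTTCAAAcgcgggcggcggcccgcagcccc
Espl1 (chr15:102296193-102296292, plus strand): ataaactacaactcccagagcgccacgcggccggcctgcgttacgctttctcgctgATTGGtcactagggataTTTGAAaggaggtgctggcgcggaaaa
Kif11 (chr19:37376282-37376381, plus strand): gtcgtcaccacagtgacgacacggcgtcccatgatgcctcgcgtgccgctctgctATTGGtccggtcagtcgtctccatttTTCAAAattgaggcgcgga
Top2a (chr11:99024190-99024289, minus strand): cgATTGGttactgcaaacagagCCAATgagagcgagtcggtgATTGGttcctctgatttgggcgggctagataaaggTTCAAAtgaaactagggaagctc
Ncapg (chr5:45669825-45669924, plus strand): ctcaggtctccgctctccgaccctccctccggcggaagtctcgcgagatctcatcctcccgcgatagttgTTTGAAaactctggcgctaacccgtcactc
The cyclin B2 promoter has 3 CCAAT boxes, at -87, -54 and -21, and its CHR letters begin at -167 and at 5 after the start, both outside the stretch shown. In Cdk1 the CHR letters begin at -71 and at -15, and the ATTGG letters at -80, at -48 and, outside the stretch shown, at -208. The windows of Nuf2, Nusap1, Ncaph, Cenpe, Mad2l1, Pttg1 and Birc5 held neither CHR form.

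The deposited signals had a 2% trimmed mean of 500 on each array, and the arrays' median signals lay between 78.1 and 94.3. Signals under 86.8, the median of all probe sets other than controls, were raised to that floor before taking log2, and a gene was counted in a comparison where at least 1 of its 2 arrays lay above it. The Gapdh 3'/5' signal ratio, a sign of RNA integrity, was 1.31 with MPA and 1.19 without at day 6, 1.57 with MPA and 1.55 without at day 8, and 1.08 at day 5. The same ratio for Actb was 3.06 with MPA and 3.04 without at day 6, 2.71 with MPA and 2.81 without at day 8, and 2.08 at day 5. The part of RNA integrity in the results below was not tested. Of the defining markers, the pluripotency gene Pou5f1 had 7598, 1016 and 96.0 in the controls at days 5, 6 and 8. It does not stand for the whole list of pluripotent markers. Of 7 measured from day 6 to day 8 in the controls, 4 were higher at day 8 and 3 lower (median 0.33). Pdx1, which marks pancreatic progenitors, was at 90.4 with MPA and 78.6 without at day 8, next to the floor, and under it on the other 3 arrays. Pou5f1 was thus near the floor by day 8, and the pancreatic label is not borne out by Pdx1 on these arrays, although 10 of 11 pancreas markers with MPA and 9 without were above the floor at day 8.

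All 42 mitosis genes were above the floor on all 5 arrays. Their mean signals ran from 360.3 for Cdc25b to 16240.4 for Cdc20, with a median of 3046. The summed signal of the 42 was 196806 in the day 5 control. At day 6 it was 221538 with MPA and 241454 without, and at day 8 it was 118028 with MPA and 144423 without. The set was therefore brightest in the day 6 control and dimmest in the day 8 culture with MPA. In bulk samples, fewer dividing cells and less RNA per cell cannot be told apart.

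**Figure D1:**
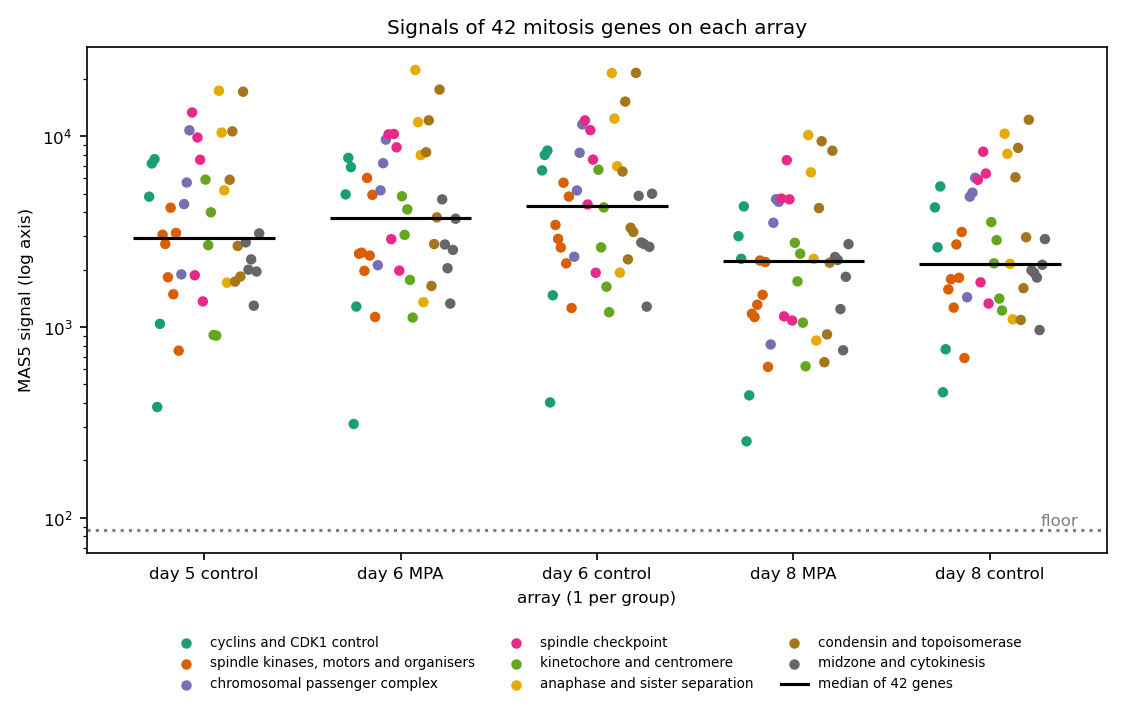
MAS5 signal (log axis) of the 42 mitosis genes on each of the 5 arrays, 1 point per gene, coloured by role, with a bar at the median of the 42 and a dotted line at the floor of 86.8. All points lie above the floor, and the points of both day 8 arrays sit lower than those of the day 6 arrays.

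The control time course shows how these genes behaved as the cells differentiated without MPA. From day 5 to day 6 they were slightly higher: 39 of 42 had more signal at day 6, where 51.6% of 12611 measured genes did, with a median log2 difference of 0.32, against 0.018 for all genes. That median was 0.17 with the mean over each gene's probe sets, 0.21 on second brightest probe sets and 0.17 without the probe sets ending in _s_at, _x_at or _a_at. Of the 42, 7 were 1.5-fold or more higher (14.5% of all genes were) and 0 were 1.5-fold lower (12.4%). From day 6 to day 8 the set was lower: 40 of 42 had less signal at day 8, where 48.7% of 12824 genes did, with a median of -0.70, against 0.021 for all genes. Of the 42, 26 were 1.5-fold or more lower (16% of all genes) and 11 were 2-fold or more lower (6.43%). The signal was highest at day 6 among the 3 controls for 37 of 42 genes, and lowest at day 8 for 33 of 42. Of the 9091 genes above the floor on all 5 arrays, 30.1% were highest at day 6 and 36% lowest at day 8. Both steps use the day 6 control, so a high reading on that array would enter both. Taken straight from day 5 to day 8, 33 of 42 were lower at day 8, where 47.4% of 12784 measured genes were.

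With MPA the set differed little at day 6 and more at day 8. At day 6, 29 of 42 genes had less signal with MPA than without, where 48.5% of 12240 genes did. The median log2 difference was -0.12, against 0.016 for all genes. Only Bub1b was 1.5-fold lower at day 6, and none of the 42 was 1.5-fold higher, where 10.8% and 12.8% of all genes were. At day 8, 37 of 42 had less signal with MPA, where 51.9% of 12599 genes did, with a median of -0.36, against -0.023 for all genes. The members 1.5-fold or more lower at day 8 were Nuf2, Cdc25b, Aurkb, Ncapg, Cdc25c, Ncapd2, Plk1 and Bub1b. That is 8 of 42, where 11.2% of all genes were, and 0 members were 1.5-fold higher, where 11.4% of all genes were. Without those same probe sets, 3 of 32 members (9.38%) were 1.5-fold lower, against 11.7% of all genes. Nuf2, Cdc25b, Aurkb, Ncapg and Cdc25c have only such probe sets and were left out there. Among the genes with a mean signal at least that of Cdc25b, 7.75% were 1.5-fold lower at day 8 and 52% lower by any amount.

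The array with the least signal was the day 8 MPA array for 35 of the 42 genes, against 25.3% of the 9091. The exceptions were Tpx2, Ndc80, Pttg1, Smc4, Ncaph, Kif20a and Kif23. The array with the most was the day 6 control for 26 genes (16.3% of the 9091) and the day 6 MPA array for 13 (22.3%). From day 6 to day 8 with MPA all 42 genes were lower (52.3% of all genes), with a median of -0.86. Of the 42, 35 were 1.5-fold or more lower (18.5% of all genes) and 16 were 2-fold or more lower (7.64%). This step was more negative with MPA than in the controls for 31 of 42, which restates a lower MPA difference at day 8 than at day 6. The share of all genes with that order was not counted, so the 31 is not read as a trait of the set. Over all genes the median step was -0.032 with MPA and 0.021 in the controls. Across the 42 genes, the MPA difference at day 6 had a Pearson r of 0.19 and a Spearman rho of 0.24 with that at day 8. These use 4 separate arrays, and genes are not independent replicates. The 3 lowest with MPA were Bub1b, Espl1 and Aurka at day 6, and Nuf2, Cdc25b and Aurkb at day 8.

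**Figure D2:**
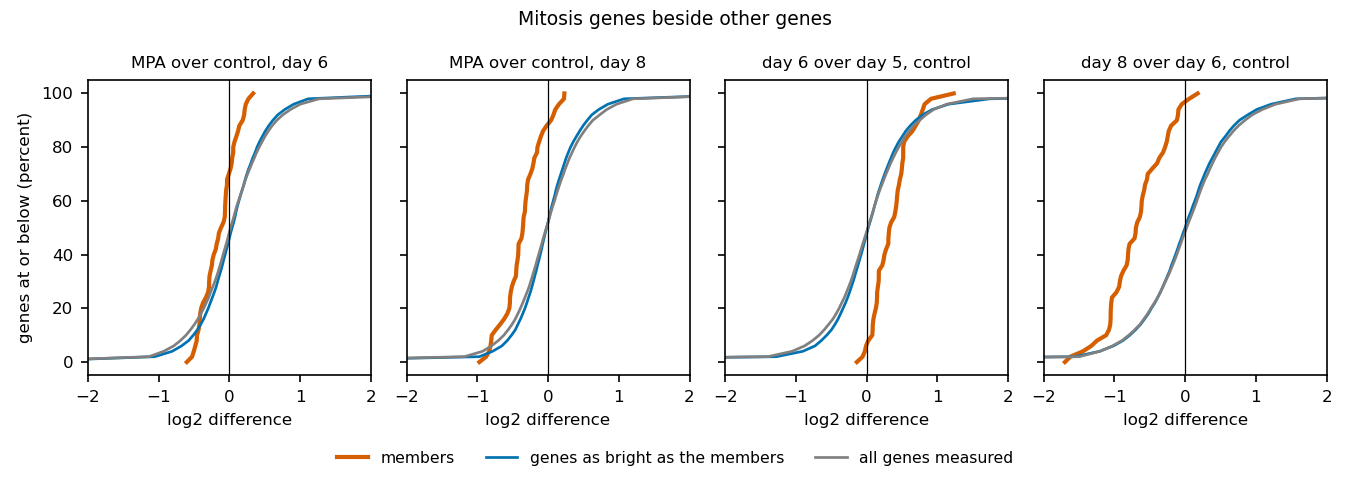
Cumulative distribution of the log2 difference in 4 comparisons for the 42 mitosis genes (orange), for genes at least as bright as the dimmest of them (blue) and for all genes measured (grey). The orange curve lies right of the others for day 6 over day 5, left of them for MPA over control at day 8, and farthest left for day 8 over day 6 in the controls, while at day 6 it lies slightly left with MPA.

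The cyclins and their kinase came first in the programme. Ccnb2, cyclin B2, had signals of 7687 and 2276 with MPA at days 6 and 8, against 7959.9 and 2614 in the controls of those days and 7184 in the day 5 control. It was 3.04-fold lower at day 8 than at day 6 in the controls and only 1.15-fold lower with MPA than without at day 8, so the days lay further apart than the cultures with and without MPA. Cdk1, the kinase that drives entry into mitosis, had 6872 and 4281 with MPA at days 6 and 8, against 8391 and 5448 in the controls of those days and 7563 in the day 5 control. Its log2 differences with MPA were -0.29 at day 6 and -0.35 at day 8. Ccna2, cyclin A2, which acts in S phase and G2, had log2 differences with MPA of -0.42 at day 6 and -0.50 at day 8, and a second probe set of similar brightness gave 0.17 and -0.40.

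The CDC25 phosphatases switch CDK1 on. Cdc25b had 311 and 252 with MPA at days 6 and 8, against 403 and 455 in the controls of those days and 381 in the day 5 control. It was 1 of the 2 members not lower at day 8 than at day 6 in the controls, at a log2 difference of 0.18. With MPA it was 1.81-fold lower than without at day 8. Both values use the day 8 control, so a high reading on that array would enter both. Cdc25c had log2 differences of -0.20 at day 6 and -0.80 at day 8 with MPA, and its other probe set gave -0.44 and -1.01. On their brightest probe sets, all 5 measured genes of this group were lower with MPA at both days, with medians of -0.29 and -0.50. Of all genes, 48.5% were lower at day 6 and 51.9% at day 8. The second probe set of Ccna2 was higher at day 6, at 0.17.

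Among the spindle genes, Nusap1, a microtubule-bundling protein, had 6031 and 2229 with MPA at days 6 and 8, against 5696 and 2706 in the controls of those days and 4213 in the day 5 control. Its control signal at day 8 was 2.10-fold lower than at day 6, and its log2 difference with MPA at day 8 was -0.28. Aurka, the kinase of the spindle poles, had 2420.4 and 1174 with MPA at days 6 and 8, against 3423 and 1574 in the controls of those days and 3043 in the day 5 control. It was among the 3 lowest members with MPA at day 6 (1.41-fold lower) and was 1.34-fold lower at day 8. Its activator Tpx2 was 1.33-fold lower at day 6 and had a log2 difference of 0.050 at day 8. Its second probe set went the other way, at 0.58 and -0.53, so no direction is given for Tpx2.

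Kif2c, a motor that takes microtubules apart at their ends, had 4919 and 2189.6 with MPA at days 6 and 8, against 4821 and 3144 in the controls of those days and 3108 in the day 5 control. Kif11, the motor that pushes the spindle poles apart, had log2 differences with MPA of 0.14 at day 6 and -0.30 at day 8, and the chromosome motor Kif4 had -0.16 and -0.15. Plk1, the polo kinase that acts from mitotic entry to cytokinesis, had log2 differences with MPA of -0.24 and -0.66. Of the 7 genes in this group, 4 were lower with MPA at day 6 (48.5% of all genes) and 6 at day 8 (51.9%). All 7 were lower at day 8 than at day 6 in the controls (48.7% of all genes). Day 6 counts in groups this small are not read as a trait of the group.

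The chromosomal passenger complex corrects wrong spindle attachments, with Aurkb as its kinase and Incenp, Birc5 (survivin) and Cdca8 (borealin) as its other parts. Aurkb had 2107 and 810.1 with MPA at days 6 and 8, against 2333 and 1432 in the controls of those days and 1886 in the day 5 control. It was 1.77-fold lower with MPA at day 8, and the second probe set gave a log2 difference of -0.95. Birc5 had a log2 difference of -0.45 at day 8 and practically none at day 6, where the signals were 5192 with MPA and 5187 without. Cdca8 had 9573 and 4524 with MPA at days 6 and 8, against 11500.4 and 6046 in the controls of those days and 10711 in the day 5 control, and its 3 probe sets lay between -0.42 and -0.25 at day 8. Incenp had -0.18 and -0.11. All 4 genes were lower with MPA at day 8 (51.9% of all genes), and 3 of 4 at day 6 (48.5%).

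The spindle checkpoint genes carry the signal of unattached kinetochores. Bub1b, which encodes BubR1, had 2885 and 1137 with MPA at days 6 and 8, against 4381 and 1713 in the controls of those days and 1866 in the day 5 control. It had the largest difference of the 42 for day 6 over day 5 in the controls (2.35-fold higher at day 6) and the lowest with MPA at day 6 (1.52-fold). Both values use the day 6 control, so a high reading on that array would enter both. At day 8 Bub1b was again 1.51-fold lower with MPA. A second probe set gave -0.65 at day 6 and -0.32 at day 8, and 0.75 for day 6 over day 5. Bub1, the kinase that recruits the checkpoint, had 10204 and 4706 with MPA at days 6 and 8, against 12078 and 5900.0 in the controls of those days and 13290.1 in the day 5 control, and it was the lowest member for day 6 over day 5, at -0.14.

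Mad2l1, the gene of the inhibitor MAD2, went 2 ways with MPA, at 0.21 on day 6 and -0.45 on day 8. Ttk, of the kinase MPS1, had 0.036 and -0.30. Bub3, which loads Bub1 and BubR1 onto kinetochores, had 10250.5 and 7472 with MPA at days 6 and 8, against 10737 and 8278 in the controls of those days and 9828 in the day 5 control. All 5 checkpoint genes were lower with MPA at day 8 (51.9% of all genes), with a median of -0.33, and 3 of 5 at day 6 (48.5%).

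Of the kinetochore and centromere genes, Nuf2 had the lowest MPA difference at day 8. Nuf2, a part of the NDC80 complex that grips microtubules, had 1121 and 623 with MPA at days 6 and 8, against 1195 and 1220.4 in the controls of those days and 902 in the day 5 control. In the controls its signal was almost the same at day 8 and day 6, at a log2 difference of 0.030. With MPA at day 8 it was 1.96-fold lower than without, the lowest of the 42. Both values use the day 8 control, so a high reading on that array would enter both. From day 6 to day 8 with MPA, Nuf2 had -0.85, next to the median of -0.86 for the 42. Nuf2 has 1 probe set. Its partner Ndc80 had 1763 and 1054 with MPA at days 6 and 8, against 1626 and 1409 in the controls of those days and 908 in the day 5 control, 1.34-fold lower with MPA at day 8 and 1.79-fold higher at day 6 than at day 5.

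Cenpa, the histone H3 variant that marks the centromere, had 4838 and 2761 with MPA at days 6 and 8, against 6663 and 3541 in the controls of those days and 5913 in the day 5 control, with log2 differences with MPA of -0.46 and -0.36. Cenpe, a kinetochore motor, had 3037 and 1734 with MPA at days 6 and 8, against 2612 and 2155 in the controls of those days and 2682 in the day 5 control. It was among the 3 highest members with MPA at day 6, at 0.22, and lower at day 8, at -0.31, and its second probe set gave 0.20 and -0.39. Cenpf had -0.035 and -0.24. All 5 genes of this group were lower with MPA at day 8 (median -0.36), and 3 of 5 at day 6 (median -0.035). Of all genes, 51.9% were lower at day 8 and 48.5% at day 6, so the day 6 count lies near that share.

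The anaphase genes had the lowest median of the 8 role groups for day 8 over day 6 in the controls, though not for that step with MPA. Pttg1, the gene of securin, had 7948 and 2273 with MPA at days 6 and 8, against 6955 and 2141 in the controls of those days and 5195 in the day 5 control. It was 3.25-fold lower at day 8 than at day 6 in the controls and 3.50-fold lower with MPA, and it was the only member with more signal with MPA at both days, at 0.19 and 0.087. Its second probe set gave a log2 difference of -1.57 for day 8 over day 6 in the controls and, for MPA, -0.012 at day 6 and -0.011 at day 8, so its higher signal with MPA rests on 1 probe set.

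Cdc20, the activator of the anaphase-promoting complex, had 22175 and 10108 with MPA at days 6 and 8, against 21369.6 and 10290.1 in the controls of those days and 17259.5 in the day 5 control. The log2 differences with MPA were 0.053 and -0.026, and its second probe set gave -0.19 and -0.10. Ube2c, the ubiquitin-conjugating enzyme of that complex, had 11815 and 6456 with MPA at days 6 and 8, against 12336 and 8073 in the controls of those days and 10427 in the day 5 control. Espl1, separase, had 1349.5 and 849 with MPA at days 6 and 8, against 1924 and 1097 in the controls of those days and 1707 in the day 5 control, and was 1.43-fold lower with MPA at day 6 and 1.29-fold lower at day 8. The group had medians of -0.93 for day 8 over day 6 in the controls, -0.0044 for MPA at day 6 and -0.17 for MPA at day 8.

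Condensin is a ring of Smc2 and Smc4 closed by Ncaph, which carries Ncapd2 and Ncapg. Its genes did not keep together with MPA. Ncapg had 2718 and 915 with MPA at days 6 and 8, against 3310.4 and 1596 in the controls of those days and 2658 in the day 5 control, 1.75-fold lower with MPA at day 8. Its second probe set gave 0.26 at day 6, against -0.28 on the brighter one, and -1.08 at day 8. Ncapd2 had log2 differences with MPA of -0.46 and -0.73. Smc2 had 8221 and 4193 with MPA at days 6 and 8, against 6519 and 6084 in the controls of those days and 5902 in the day 5 control. It was the highest member with MPA at day 6, 1.26-fold higher, and 1.45-fold lower at day 8, and 3 further probe sets above the floor on all 5 arrays gave the same directions at both days. The dim one that was under it on 1 array gave -1.66 at day 6 and -0.070 at day 8.

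Smc4 had 12084 and 9393 with MPA at days 6 and 8, against 15142 and 8669 in the controls of those days and 10578 in the day 5 control, lower with MPA at day 6 (-0.33) and higher at day 8 (0.12), but both further probe sets of Smc4 were lower with MPA at day 8, at -0.079 and -0.32. Ncaph had 3751 and 2172 with MPA at days 6 and 8, against 3145 and 2950.1 in the controls of those days and 1837 in the day 5 control. Its log2 differences with MPA were 0.25 and -0.44, and its second probe set gave 0.080 and -0.11. Top2a, which untangles sister DNA, had 17509.8 and 8376 with MPA at days 6 and 8, against 21406 and 12171 in the controls of those days and 17064 in the day 5 control, and was lower with MPA at both days, at -0.29 and -0.54. The group median was -0.29 at day 6 and -0.54 at day 8, the lowest of the 8 role groups at day 8.

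The midzone and cytokinesis genes held 2 of the 5 members that were higher with MPA at day 8. Kif20a, a motor that brings the passenger complex to the midzone, had 4662 and 2325 with MPA at days 6 and 8, against 4862 and 1981 in the controls of those days and 2774 in the day 5 control. It was 1.17-fold higher with MPA at day 8, the highest of the 42, and 2.45-fold lower at day 8 than at day 6 in the controls. Kif23, a motor of the centralspindlin complex, had 2705 and 2245 with MPA at days 6 and 8, against 2769 and 1922 in the controls of those days and 1996 in the day 5 control, at 0.22 for MPA at day 8 and 0.40 on its second probe set. Its partner in that complex, Racgap1, had 1327 and 755 with MPA at days 6 and 8, against 1279 and 964 in the controls of those days and 1294 in the day 5 control, at -0.35, with -0.71 on the second probe set. The 2 parts of centralspindlin thus differed in direction at day 8.

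Anln, the gene of anillin in the contractile ring, had 3690.3 and 2717 with MPA at days 6 and 8, against 4987 and 2885 in the controls of those days and 3092 in the day 5 control. It was 1.35-fold lower with MPA at day 6, at a log2 difference of -0.087 at day 8, and its dim second probe set gave 0.84 and 0.60. Prc1, which bundles midzone microtubules, was lower at both days, at -0.42 and -0.55, and Ect2, which switches on RhoA at the furrow, had -0.054 and -0.21. The medians of the group were -0.057 and -0.15.

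**Figure D3:**
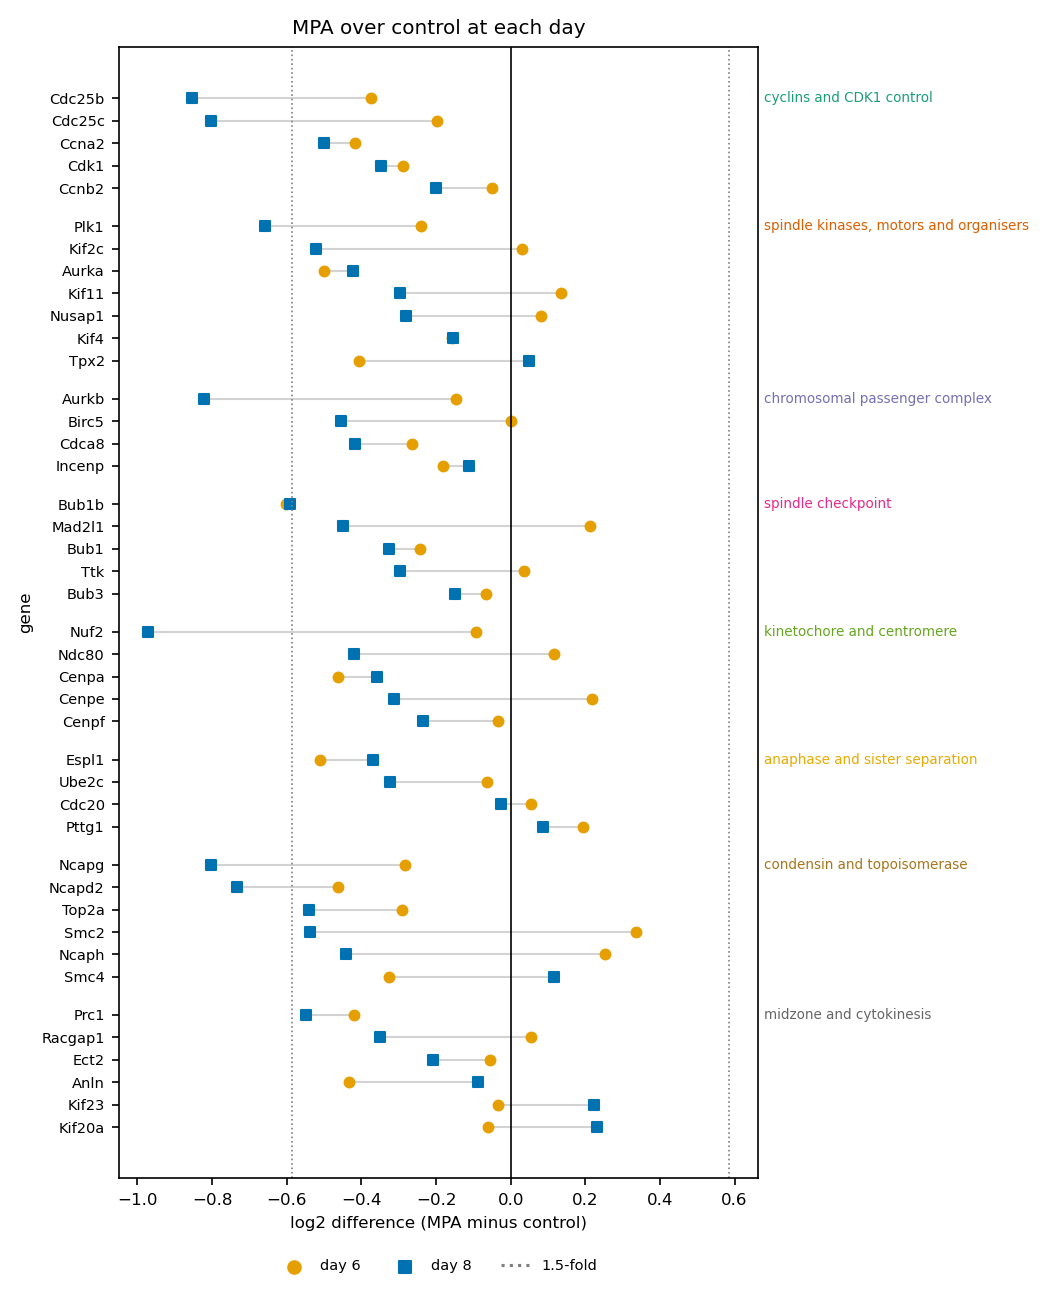
Log2 difference of MPA minus control at day 6 (circles) and day 8 (squares) for each of the 42 genes, in 8 role groups, with dotted lines at 1.5-fold. At day 8 most squares lie left of 0, down to -0.97 for Nuf2, and 5 lie right of it, while the circles spread on both sides from -0.60 for Bub1b to 0.33 for Smc2.

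**Figure D4:**
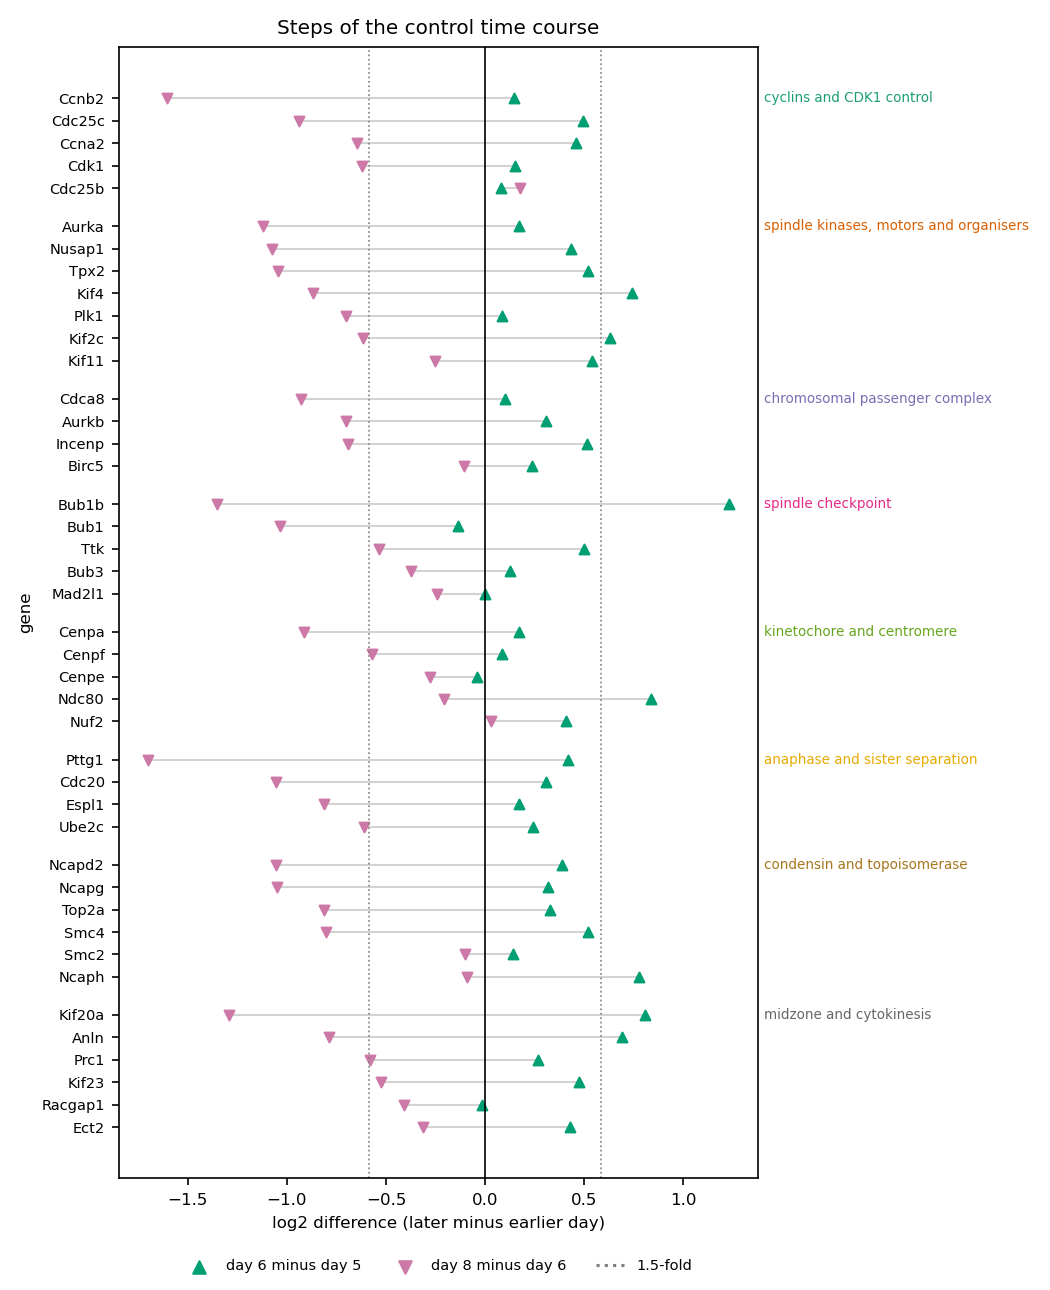
Log2 difference of the later minus the earlier day in the controls, for day 6 minus day 5 (upward triangles) and day 8 minus day 6 (downward triangles), for each of the 42 genes in 8 role groups, with dotted lines at 1.5-fold. All but 3 upward triangles lie right of 0 and all but 2 downward triangles lie left of it, down to -1.70 for Pttg1.

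The test was a limma fit over 11599 genes that modelled each of the 4 signals at days 6 and 8 as a day level plus 1 MPA effect. It has 1 residual degree of freedom, and its error is largely borrowed from other genes, since no culture was repeated. A gene's own part of that error is the disagreement of its MPA differences at the 2 days, and no spread between cultures. The fit thus favours genes with like differences on both days, and its p-values do not speak for further cultures. Of the 42 mitosis genes, 0 had an adjusted p under 0.05, where 0.00862% of all genes (1 gene) did, and the lowest adjusted p of a member was 0.694, for Bub1b (log2 difference -0.60, SE 0.21, lower at both days). At an unadjusted p under 0.05 there were 5 members, all lower (Bub1b, Top2a, Ccna2, Ncapd2 and Ncapg), where 3% of all genes were lower and 3.37% higher. This count was 3 with quantile normalization and 0 under each of the other 5 forms of the fit. Of the members named, Ccna2 and Ncapg were higher with MPA at day 6 on their second probe sets, at 0.17 and 0.26. Bub1b, Top2a and Ncapd2 were lower there as well. The lack of calls after adjustment does not show that the values did not differ.

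Other probe sets of the same genes give a second reading of the same arrays, which bears on measurement error but not on culture spread. Of the 42 genes, 29 had several probe sets, and 25 of them had 33 further ones above the floor on all 5 arrays. For MPA at day 8, 26 of the 33 went the same way as the brightest, 29 of 33 were lower, and their median was -0.38. Readings of the same gene lay a median of 0.20 apart on the log2 scale. At day 6, 21 of 33 went the same way, and the median gap of 0.20 was larger than the median MPA difference of the set. For day 8 over day 6 in the controls, 30 of 33 went the same way, with 30 lower and a median of -0.53. For day 6 over day 5, 19 of 33 went the same way, 21 were higher, and the median was 0.13. More of the 33 thus went the same way for the day 8 comparisons than for day 6. As most readings were lower at day 8, like directions there do not show agreement gene by gene. The share of like directions over all genes was not counted.

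**Figure D5:**
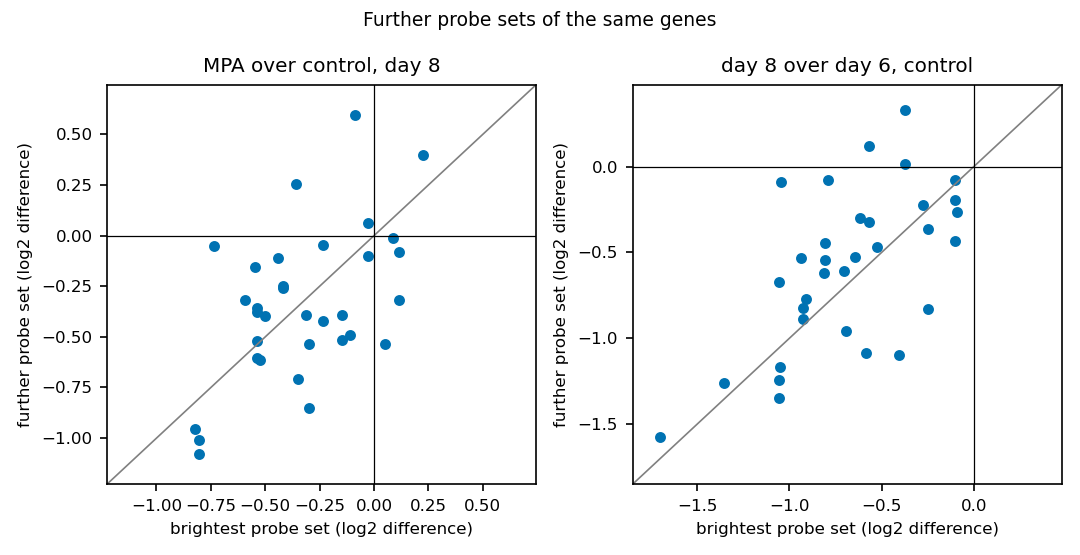
Log2 difference of 33 further probe sets (vertical axis) against that of the brightest probe set of the same gene (horizontal axis), for MPA over control at day 8 and for day 8 over day 6 in the controls, with the line of equality in grey. On the left 29 of 33 points lie below 0, and on the right 30 of 33.

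Members whose promoter window held a CHR form and those without one were set side by side after their values were seen, so this is a description. With MPA at day 6, 21 of the 28 members with a CHR form were lower (median -0.20, from -0.60 to 0.33), and 6 of the 7 without were higher (median 0.19, from -0.093 to 0.25). The 7 were Mad2l1 (0.21), Pttg1 (0.19), Ncaph (0.25), Cenpe (0.22), Nusap1 (0.083), Birc5 (0.0012) and Nuf2 (-0.093). The ranges overlap. At day 8, 27 of 28 with and 6 of 7 without were lower, with medians of -0.36 and -0.44. For day 8 over day 6 in the controls the medians were -0.66 with and -0.24 without, but without a CHR form they ran from -1.70, for Pttg1, to 0.030. The day 6 contrast with MPA was not particular to the CHR forms. With a CCAAT box 20 of 26 were lower (median -0.20), and without one 7 of 9 were higher (median 0.083). By TTTGAA alone, 19 of 26 with it were lower (median -0.11), and 6 of 9 without were higher (median 0.083). Birc5 lay next to 0 at day 6, and the second probe set of Pttg1 gave -0.012.

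Genes of the same pathway that are not members were read from a wider list of mitosis genes. Of its 75 genes on the array, 58 of 72 measured had less signal with MPA at day 8 (51.9% of all genes). Their median was -0.36. Of the 72, 17 were 1.5-fold or more lower (11.2% of all genes), and 0 were that much higher (11.4%). At day 6 fewer were lower, 27 of 74 (48.5% of all genes), and 47 were higher, the median being 0.058. On the wider list the small day 6 difference of the 42 thus had the opposite sign. In the controls 54 of 74 were lower at day 8 than at day 6 (48.7% of all genes), with a median of -0.32. At day 6, 50 of 74 were higher than at day 5 (51.6% of all genes), with a median of 0.18.

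Kinetochore genes were among those furthest apart on that list. Nsl1, of the MIS12 complex, had 168 and 122 with MPA at days 6 and 8, against 281 and 268 in the controls of those days and 273 in the day 5 control, and Knl1, the checkpoint platform, had 518 and 313 with MPA at days 6 and 8, against 728 and 596 in the controls of those days and 698 in the day 5 control. Both were lower with MPA at both days. Cenpt, which anchors the NDC80 complex to the centromere, went the other way, with 1555 and 1041 with MPA at days 6 and 8, against 618 and 861 in the controls of those days and 621 in the day 5 control. Cit, the citron kinase of cytokinesis, had log2 differences of -0.50 and -0.59.

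The cohesin and anaphase-promoting complex lists had medians nearer to 0. The 12 cohesin genes measured had medians of -0.049 and -0.074 with MPA at days 6 and 8, and -0.13 for day 8 over day 6 in the controls. The 15 genes of the anaphase-promoting complex had 0.042, -0.038 and 0.024.

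DNA replication genes act in S phase. Of 37, 26 were lower at day 8 than at day 6 in the controls (48.7% of all genes). Their median was -0.099, against -0.70 for the mitosis genes. With MPA at day 8, 33 of 37 had less signal (51.9% of all genes), and the median was -0.46, beside -0.36. At day 6 the median was 0.013. The largest mean difference was that of Ccne1, cyclin E1, with 895 and 393 with MPA at days 6 and 8, against 942 and 968 in the controls of those days and 1226 in the day 5 control.

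The regulators of mitotic transcription were partly dim. Mybl2, B-Myb, had 225 and 433 with MPA at days 6 and 8, against 291 and 202 in the controls of those days and 221 in the day 5 control, more with MPA at day 8 and less at day 6. Rbl2, the p130 pocket protein of the repressor complex that sits on CHR elements, was under the floor on 3 of 5 arrays. Of 13 such genes measured, 10 were lower with MPA at day 8 (51.9% of all genes) and 5 at day 6 (48.5%). Over all genes measured, 6303 of 12240 were higher with MPA at day 6 and 6058 of 12599 at day 8. Targets of p53 were higher with MPA at day 6 in 17 of 19 cases (median 0.90) and at day 8 in 13 of 19 (median 0.31). Among them Cdkn1a, the gene of the CDK inhibitor p21, had 4797 and 6169 with MPA at days 6 and 8, against 2191 and 2711 in the controls of those days and 3734 in the day 5 control. Their part in the mitosis gene differences was not tested.

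Markers of cell types moved over the same arrays. The summed signal of 9 neural markers was 2555 with MPA and 10934 without at day 8, and 1159 with MPA and 2364 without at day 6, with all 8 measured at day 8 lower with MPA. For 8 cardiac muscle markers it was 7278 with MPA and 2746 without at day 8, and 368.2 with MPA and 528 without at day 6, and all 4 measured were higher with MPA at day 8. For 9 definitive endoderm markers it was 18297 with MPA and 11108 without at day 8, and 18725 with MPA and 11619 without at day 6. At day 8, 4 of 7 measured were higher with MPA and 3 lower: Foxa1 had 9593 with MPA and 4339 without, while Sox17 had 485 with MPA and 1550.3 without. For 9 pluripotent markers it was 3137 with MPA and 5476 without at day 8, and 3076 with MPA and 4632 without at day 6, against 33432 at day 5. Most of the day 8 sums was Sox2, with 2396 with MPA and 4784 without, and 2 of 6 measured were higher with MPA and 4 lower. For 11 pancreas markers it was 6046 with MPA and 2528 without at day 8, and 2399.9 with MPA and 2143 without at day 6, with 9 of 11 higher with MPA at day 8. For 9 mesenchyme and fibroblast markers it was 12882 with MPA and 12018 without at day 8, and 4241 with MPA and 3740 without at day 6, with 4 of 7 measured higher with MPA at day 8. Over all genes measured, 51.9% were lower with MPA at day 8. The part of these cell types in the mitosis gene differences was not tested.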

How the data were processed

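Per the labels' protocols, 100 ng of total RNA was turned into biotin-labelled cRNA for an Affymetrix 3' array, 1 per sample. The deposited values are linear signal intensity, made with MAS5 per the submitters' processing notes; no version or settings of it were given in the sources used here. That every array has a 2% trimmed mean of 500 was read from the values. Of 45101 probe sets, 64 were controls, 34945 had 1 gene symbol in the platform annotation, 932 had several and 9160 had none; only those with 1 symbol were used, and 34741 of these were found in RefSeq (GRCm38.p6) by gene identifier. Each of 18193 genes was taken from its brightest probe set, floored at 86.8 and put on the log2 scale.

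Genes were counted past 1.5-fold and 2-fold without a test. The additive fit used limma 3.58.1 in R 4.3.3, with trended and robust eBayes, Benjamini-Hochberg adjustment and a filter that kept genes over the floor on 2 or more of its 4 arrays. It was also run on simulated data with independent noise and MPA effects that were equal at both days and larger than any member's difference. That run does not show how the fit performs on differences as small as the members'. Other steps used Python 3.11.15, numpy 2.4.6, pandas 2.3.3, scipy 1.17.1 and matplotlib 3.10.9.

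The members, role groups and lists were chosen with earlier results of these data known. Signals on every array are given for the 3 highest and 3 lowest members of each comparison and the brightest of each role group, and up to 4 genes a list were named by their mean MPA difference. Alternatives changed the array scaling, the floor (25th or 65th percentile, or added to the signal), the choice of probe set and the form of the limma fit. Promoter windows were searched on both strands.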

Additional observations from a re-analysis of the deposited data

Results flagged for a closer look

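With 1 array per group no sample could be set against others of its group. Of the 42 mitosis genes, 7 went opposite ways with MPA at the 2 days by at least 0.1 on the log2 scale each day, and this difference between the days was not tested. The share of all genes that did so was not counted, so the 7 are not read as a trait of the set. The MPA difference at day 8 minus that at day 6 was -0.87 for Smc2, -0.70 for Ncaph and -0.66 for Mad2l1. It was -0.54 for Ndc80, -0.53 for Cenpe and -0.43 for Kif11. These 6 genes were higher with MPA at day 6 and lower at day 8. Smc4 had the opposite order, at 0.44. On their second brightest probe sets Smc2, Cenpe and Ncaph were again higher at day 6 and lower at day 8, Ncaph at only 0.080 and -0.11. There, Smc4 was lower at both days, at -0.20 and -0.079, and so was Kif11, at -0.14 and -0.54.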

How the results depend on the processing

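The medians of the 42 genes kept their sign in the 5 comparisons under all 8 alternatives. The floors at the 25th and 65th percentile left the members' medians as they were. Adding the floor to the signal cannot turn the sign of a gene's difference. These alternatives thus say nothing on whether the signs hold. They ran from -0.20 to -0.092 for MPA at day 6, from -0.38 to -0.32 for MPA at day 8, from 0.17 to 0.32 for day 6 over day 5, from -0.74 to -0.51 for day 8 over day 6 in the controls, and from -0.87 to -0.75 for that step with MPA. Median centring gave -0.20 at day 6 with MPA. The mean over probe sets, the second brightest probe set and leaving out probe sets by suffix gave 0.17, 0.21 and 0.17 for day 6 over day 5. The members 1.5-fold lower with MPA at day 6 numbered 0 with quantile normalization, 2 with median centring and 2 on second probe sets, in place of 1. Second probe sets exist for fewer members (27 to 29), and there 18 were lower with MPA at day 6. On them 19 were higher at day 6 than at day 5, 3 of them 1.5-fold. For day 8 over day 6, 26 were lower in the controls, 13 of them 1.5-fold, and 25 with MPA, 17 of them 1.5-fold. Leaving out probe sets by suffix kept 32 members, with 3 (9.38%, against 11.7% of all genes) in place of 8 being 1.5-fold lower with MPA at day 8, and 25 higher at day 6 than at day 5, 4 of them 1.5-fold. Of 77 member differences of 1.5-fold or more, 9 of 575 alternative values had the other sign. The 575 include the values under the changed floors, which could not take the other sign. Over all probe sets Kif2c gave -0.13 for day 6 over day 5 and 0.16 for day 8 over day 6 in the controls. On second probe sets, day 6 over day 5 was -0.037 for Kif2c (the same by suffix) and -0.51 for Anln. There, day 8 over day 6 in the controls was 0.25 for Aurka and 0.52 for Nusap1, and with MPA 0.11 for Aurka and 0.32 for Ttk, with Aurka, Nusap1 and Ttk read there from probe sets above the floor on only 2 of 5 arrays. The cause of these changes was not tested. In limma 0 members passed under all 6 other forms of the fit, with the lowest adjusted p of a member from 0.822 to 1. Members at an unadjusted p under 0.05 numbered 3 with quantile normalization and 0 under the other 5, in place of 5. No paired analysis was possible because each group has 1 array and the labels carry no replicate numbers. Leaving out a replicate was not possible for the same reason.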
